A study of Drosophila melanogaster with 8 samples.

Results

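The neuropeptide and peptide hormone precursor genes of *Drosophila melanogaster* were examined as a group of 41 genes, taken by gene name from the 23932 features (genes and annotated transposon insertions) of the deposited count table. Every name on the list was found. A neuropeptide gene encodes a precursor protein that enters the secretory pathway, is cut at basic residues by prohormone convertases, is often amidated at its C terminus, and is stored in dense core vesicles until release. The mature peptides act mostly on G-protein-coupled receptors and modulate circuits for feeding, sleep, circadian output, water balance and ecdysis. Many of these genes are made in only a few neurons or gland cells of the brain, and some of them also in endocrine cells of the gut or the glands attached to the brain. In the current annotation the longest encoded precursors ranged from 64 (*Nplp4*) to 487 (*Nplp1*) residues, and the exon length of the genes had a median of 1033 bases. The chromosome arms held 16 of the genes on 3R, 9 on 2L, 8 on 2R, 6 on 3L and 1 on X, and *Gpa2* lay on an unmapped scaffold.

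The study asked which genes depend on the transcription factor Daughterless (Da) in the adult nervous system, and suppressed Da through its inhibitor Extramacrochaete (Emc). EmcOE brains came from flies with *elavC155-Gal4>UAS-emc*, in which the neuronal driver *elavC155-Gal4* expresses an *emc* transgene, and Control brains came from the cross *elavC155-Gal4xwhite\**, which carries the same driver without the transgene. Both groups held 4 replicates of dissected brains from flies aged 0 to 1 day, with brains of many males and females pooled in each sample. The driver is active in neurons, and the dissected tissue also holds other cells. The driver is on from embryonic stages, so Emc was raised through development and not only in the adult. The crosses also used different fly lines, and an effect of the line cannot be told apart from one of Emc. In whole brains, fewer cells of a type and less RNA per cell cannot be told apart either.

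Total counts were between 20751513 and 22776791 in 7 samples and 41619980 in EmcOE replicate 1. Normalized counts, scaled with edgeR's TMM method to a common library size, of *emc* itself were 5784 to 6272 in EmcOE and 4753 to 5183 in Control brains, without overlap. The 5 neuronal markers listed were all detected, with summed normalized counts of 115560 to 127120 in EmcOE and 108860 to 121570 in Control brains. The 8 photoreceptor markers, from the retina beside the brain, were all detected too and summed to between 615950 and 747560. Of 10 fat body markers, 4 were upregulated in EmcOE brains (*Fbp1*, *Fbp2*, *Lsp1alpha* and *Lsp1beta*), and all but *Lsp1alpha* without overlap. The other fat body markers were not called. The summed list overlapped between the groups (90043 to 160530 in EmcOE and 53360 to 202910 in Control). Nearly all of that sum came from *Yp1*, *Yp2*, *Yp3* and *apolpp*, so it says little of the genes called. Of 6 hemocyte markers, *Hml* and *NimC1* were downregulated. Of those not called, *Sr-CI* and *eater* were lower with overlap, and *Col4a1* (log2 fold change -0.02) and *vkg* (0.03) differed little. The hemocyte sum overlapped (18657 to 21163 in EmcOE and 18436 to 21954 in Control), and nearly all of it came from *Col4a1* and *vkg*. Of 6 glial markers, *Gs2* was downregulated, and the sum was lower without overlap (68256 to 76925 in EmcOE and 81829 to 86079 in Control). *Gs2* alone (means of 40848 and 49431) made up most of this sum and of its difference. Of the glial markers not called, *alrm* was lower without overlap, *repo* and *Eaat1* were lower with overlap, and *moody* and *wrapper* had higher means in EmcOE brains. Of 7 markers of the endocrine glands attached to the brain, *sad* was upregulated, *jhamt* was not called, 5 lay below the minimum for testing and *dib* was at 0 in every sample. Their sum was higher in EmcOE brains without overlap (322 to 425 in EmcOE and 176 to 247 in Control). Most of this difference came from *sad* (means of 185 in EmcOE and 55.2 in Control), while *jhamt* had 163 and 136. None of the gland markers below the minimum had a higher mean in EmcOE brains. The part of these cell types in the results below was not tested. Among the EmcOE samples, replicate 1 had the highest normalized count for 21 of the 37 precursor genes tested (56.8%, against 31.2% of all features tested) and replicate 3 the lowest for 23 of 37 (62.2%, against 28.5%). The calls, and the values that moved most, are given below also without them.

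The precursor genes covered more than 3 orders of magnitude in these brains when compared per kb of exon length. *Nplp3* (33648 normalized counts per kb over all samples) and *Nplp2* (21355) had the highest levels, both named for peptides that mass spectrometry found in the fly nervous system. They made up 28.4% to 40.5% of all counts of the group in a sample. *Ms* (4384 per kb), the precursor of myosuppressin, and *SIFa* (4042), whose peptide comes from a few large neurons and acts on courtship and feeding, followed. The next levels were those of *spab* (3228), the circadian transmitter gene *Pdf* (3156), the diuretic hormone gene *Dh31* (2429), the short neuropeptide F gene *sNPF* (2343), *Nplp1* (2070.0) and the allatostatin C gene *AstC* (1958). At the low end of the genes tested, *Ptth* had 16.9 and *amn* 9.63 normalized counts per kb. Of the exon length of *SIFa*, 21.1% lay in exons of other features. Since the counting ignored strand, its level is less certain.

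**Figure D1:**
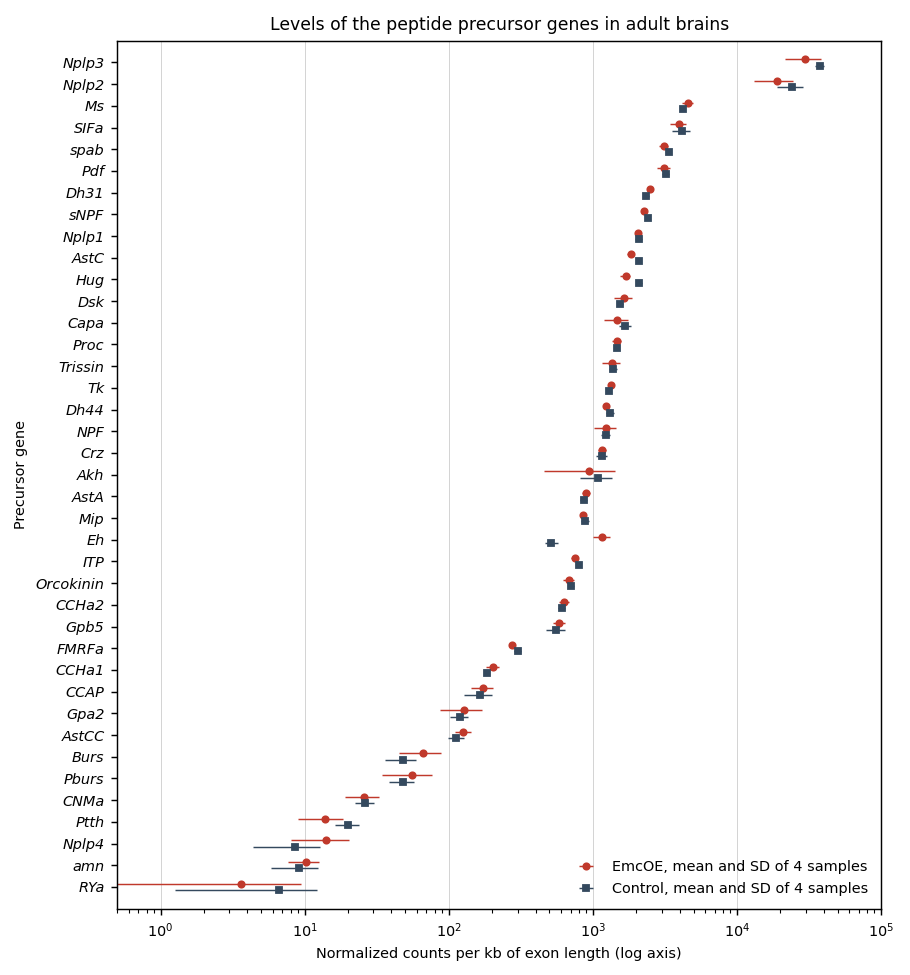
Normalized counts per kb of exon length (log axis) for the 39 precursor genes with any count, in EmcOE (circles) and Control (squares) brains, as mean and SD of 4 samples per group. *Nplp3* and *Nplp2* lie far above the rest, and *Eh* is the gene whose group means stand clearly apart.

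*Lk*, the leucokinin precursor gene, and *ETH*, the precursor gene of ecdysis triggering hormone, had 0 counts in every sample. These zeros do not measure their levels. In the table, 93.0% of the exon length of *Lk* lies under the antisense feature *asRNA:CR44843* and 90.5% of that of *ETH* under *asRNA:CR43257*. Pairs that overlap several features are by default left uncounted when strand is ignored. The antisense features had 4 to 29 and 2 to 10 counts per sample. *RYa* (0 to 9 counts per sample) and *Nplp4* (1 to 18) also lay below the minimum for testing, a mean normalized count of 20 in either group. The other 37 genes were tested together with all features above this minimum, and *Ptth* (15.5 ± 5.33 in EmcOE and 22.7 ± 4.32 in Control brains, SD, n = 4) passed it only through its Control mean.

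Of the 37 precursor genes tested, 1 was upregulated in EmcOE brains (*Eh*) and 1 was downregulated (*Hug*). A feature was called where its log2 fold change was 0.2 or more in size and its p from the quasi-likelihood test of edgeR, adjusted by Benjamini-Hochberg over all features tested, was 0.05 or less. By the same rule 3.57% of the 9788 features tested were upregulated, 5.12% downregulated and 8.68% called in either direction, against 5.41% of the precursor genes. The direction of the calls over all features depended on the scaling, with 349 up and 501 down as reported here and 414 up and 275 down when total counts replaced TMM. The median log2 fold change of the precursor genes was -0.0019 (17 higher and 20 lower), beside 0.013 over all features. The normalized counts of the groups did not overlap for 4 precursor genes, *Eh*, *Hug*, *AstC* and *sNPF*. That is 10.8% of the 37, beside 16.9% of all features tested.

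**Figure D2:**
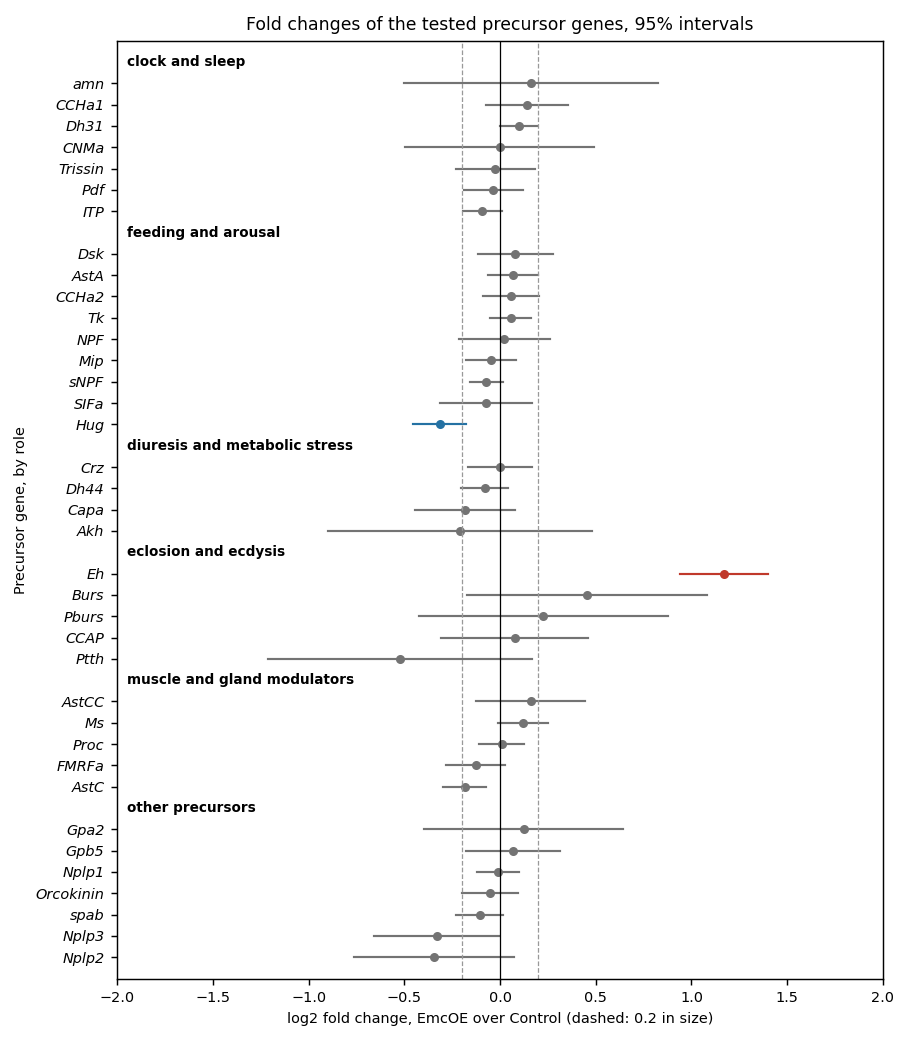
log2 fold changes of EmcOE over Control for the 37 precursor genes tested, with 95% intervals from edgeR, grouped by role. Dashed lines mark 0.2 in size. *Eh* (1.17) is upregulated and *Hug* (-0.32) is downregulated, and the other genes were not called. Of these, *AstC*, *Nplp3* and *Dh31* have intervals that exclude 0.

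For most of the 35 genes not called, the data also bound the size of a change. Of them, 29 had a log2 fold change below 0.2 in size, and for 27 the whole 95% interval lay within 0.5 of 0. For 33 it lay within 1. The intervals that passed 0.5 belonged to *Nplp2*, *Nplp3* and *Akh*, whose replicates varied, and to *Burs*, *Pburs*, *Ptth*, *amn* and *Gpa2*, which had between 8.02 and 76.2 normalized counts in each sample. The median coefficient of variation over replicates was 9.04% in EmcOE and 5.90% in Control brains among the 31 genes with means of at least 100 in both groups. It exceeded 15% in either group for *NPF*, *Nplp2*, *Nplp3*, *CCAP*, *Capa*, *Akh* and *Gpb5*.

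Among the 6 genes of eclosion and ecdysis, the eclosion hormone gene *Eh* more than doubled, and the others tested did not pass the test. Eclosion hormone acts with ecdysis triggering hormone to start the motor program by which an insect sheds its old cuticle. *Eh* (FBgn0000564) lies on chromosome 3R of BDGP6.32 from 17446642 to 17448858, with 4 exons in its longest coding transcript and a precursor of 97 residues. Its normalized count was 911, 834, 667 and 847 in EmcOE replicates 1 to 4 and 319, 402, 385 and 346 in Control replicates 1 to 4. The lowest EmcOE sample thus lay well above the highest Control sample. The group means were 814.9 ± 103.9 and 363 ± 37.7 (SD, n = 4), a 2.25-fold difference. The log2 fold change was 1.17 (standard error 0.10, 95% interval 0.94 to 1.40), with an adjusted p of 7.42e-05 from edgeR. It was called in all 19 other fits, with log2 fold changes between 1.11 and 1.25, and was 1.12 without EmcOE replicate 1 and 1.25 without EmcOE replicate 3. The summed gland markers given above were higher in EmcOE brains too, mostly through *sad*. The part of the glands in the *Eh* counts was not tested. Of the 4 other features tested within 50 kb of *Eh*, *Dscam3* was also upregulated, by 0.24 on the log2 scale (adjusted p = 0.0311 from edgeR), and the other 3 were not called. *Burs* and *Pburs* encode the subunits of bursicon, which hardens the cuticle after eclosion. Their normalized counts were low, 22 to 58.1 for *Burs* and 19.9 to 46.6 for *Pburs* over all samples, and the groups overlapped. Their log2 fold changes were 0.46 (95% interval -0.17 to 1.08) and 0.23 (-0.43 to 0.88). The estimate of 1.17 for *Eh* lay outside both intervals, but the interval of *Burs* overlapped that of *Eh* (0.94 to 1.40). *CCAP*, the crustacean cardioactive peptide gene of neurons that drive the later ecdysis behaviors, had means of 217 ± 37.5 in EmcOE and 206 ± 45.6 in Control (SD, n = 4) and a log2 fold change of 0.08 (-0.31 to 0.46). *Ptth*, whose product times ecdysone release in the larva, had a log2 fold change of -0.52 with a wide interval (-1.21 to 0.17). It was -0.68 without EmcOE replicate 1 and -0.32 without EmcOE replicate 3.

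**Figure D3:**
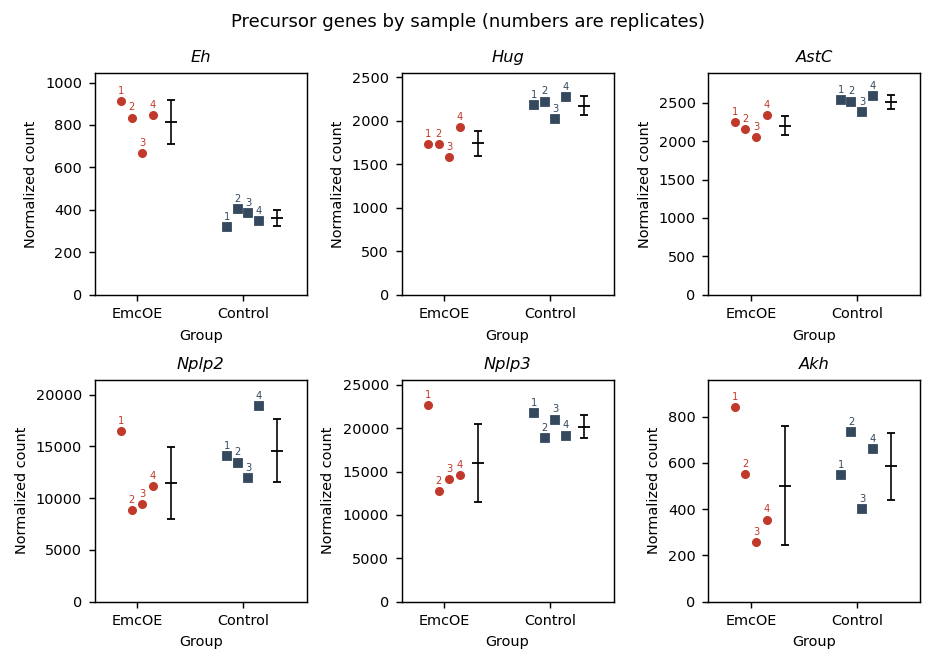
Normalized counts of *Eh*, *Hug*, *AstC*, *Nplp2*, *Nplp3* and *Akh* in each sample, with replicate numbers beside the points and the mean and SD of 4 samples at the right of each group. The groups are apart for *Eh*, *Hug* and *AstC*, and EmcOE replicate 1 lies above the other EmcOE samples for *Nplp2*, *Nplp3* and *Akh*.

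Of the 11 genes of feeding and arousal, 9 were tested, and *Hug* was the gene called. *Hug* encodes the precursor of hugin pyrokinin, made by neurons of the subesophageal zone that link taste and internal state to feeding. It lies on 3R from 12526188 to 12529076 and encodes a precursor of 191 residues. Its normalized count was 1732, 1729, 1582 and 1926 in EmcOE replicates 1 to 4 and 2177, 2220.3, 2021 and 2273 in Control replicates 1 to 4. Every EmcOE sample was lower than every Control sample. The means were 1742 ± 141 and 2173 ± 108 (SD, n = 4), a level lower by 19.6%. The log2 fold change was -0.32 (standard error 0.063, 95% interval -0.45 to -0.18), with an adjusted p of 0.0117 from edgeR. *Hug* was called in 18 of 19 other fits, with -0.30 without EmcOE replicate 1 and -0.28 without EmcOE replicate 3. With total counts in place of TMM its log2 fold change was -0.25 and the adjusted p was 0.0541 from edgeR, just outside the threshold. *Hug* lies within the span of *Octbeta3R*, which was not called. Of the 5 other features tested within 50 kb, *Hsp70Bb* was upregulated (log2 fold change 2.26, adjusted p = 0.00362 from edgeR). *Hsp70Bb* has near-identical copies, so its counts are uncertain. The genes of the hugin receptors, *PK2-R1* (157 ± 6.58 in EmcOE and 138 ± 15.9 in Control brains, SD, n = 4) and *PK2-R2* (102 ± 14.0 and 101.04 ± 7.68), were not called.

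The other feeding and arousal genes were not called. *sNPF*, a widely expressed peptide gene that promotes feeding, had normalized counts of 5522, 5724, 5545 and 5541 in EmcOE and 5835, 5832, 5817 and 6055 in Control replicates 1 to 4. The groups did not overlap, but the difference was small, with a log2 fold change of -0.07 (95% interval -0.16 to 0.015), and was not called (adjusted p = 0.284 from edgeR). Neuropeptide F (*NPF*, 0.023), allatostatin A (*AstA*, 0.069), myoinhibitory peptide (*Mip*, -0.048), tachykinin (*Tk*, 0.056), drosulfakinin (*Dsk*, 0.081), *CCHa2* (0.059) and *SIFa* (-0.073) had log2 fold changes below 0.1 in size. Their 95% intervals all included 0 and, apart from *SIFa*, none went beyond 0.28 in size. *NPF*, which raises feeding drive and reward, varied most of these for its level in EmcOE brains, from 609 to 918 normalized counts (662 to 770.4 in Control). Its log2 fold change was -0.09 without EmcOE replicate 1 and 0.10 without EmcOE replicate 3. *Dsk*, a satiety signal of the insulin-producing cells, ran from 779 to 1101 in EmcOE and 836 to 927 in Control. The inhibitory peptide genes *AstA* (1316 ± 83.9 and 1259.7 ± 71.7, SD, n = 4) and *Mip* (1193 ± 41.1 and 1236 ± 76.5) and the tachykinin gene *Tk* (2178 ± 99.5 and 2103 ± 58.9) varied less. *SIFa*, the one with the highest level per kb of these, had 2446, 2019, 1783 and 2028 normalized counts in EmcOE and 2154, 2266, 2533 and 1779 in Control replicates 1 to 4. Its samples overlapped widely, and the interval ran from -0.32 to 0.17. Without EmcOE replicate 1 or without Control replicate 4 its log2 fold change was -0.16.

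The genes that modulate muscle and glands held a near call. *AstC* encodes allatostatin C, an inhibitory peptide of endocrine and clock-related neurons, and lies on 2L from 11076165 to 11081399. Its normalized count was 2249, 2157, 2051 and 2340.3 in EmcOE and 2539.7, 2516, 2384 and 2592 in Control replicates 1 to 4, without overlap. The log2 fold change was -0.19 (standard error 0.050, 95% interval -0.30 to -0.07), with an adjusted p of 0.0430 from edgeR, so the gene passed the p threshold but not the fold change of 0.2. With total counts in place of TMM it was -0.12 (adjusted p = 0.291 from edgeR). *AstCC*, which lies beside it on the chromosome and encodes a related peptide, had a log2 fold change of 0.16 (-0.12 to 0.45). *Ms* had 6004, 5220.1, 4825 and 5448 normalized counts in EmcOE and 4933, 5130, 4955 and 4796 in Control replicates 1 to 4, and the groups overlapped. Its log2 fold change was 0.12 (-0.01 to 0.25), and 0.07 without EmcOE replicate 1. The proctolin gene *Proc* (0.0087, interval -0.11 to 0.13) and *FMRFa* (-0.13, interval -0.28 to 0.03) were not called either.

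*Nplp2* and *Nplp3*, the genes with the highest levels, were not called, and their values depended on single samples. *Nplp3* had normalized counts of 22671, 12723, 14162 and 14548 in EmcOE and 21699, 18896, 20973 and 19149 in Control replicates 1 to 4. Replicate 1 of EmcOE lay above every Control sample, while the other EmcOE samples lay below every Control sample. The log2 fold change was -0.33 (95% interval -0.66 to -0.0038; adjusted p = 0.191 from edgeR). *Nplp2* had 16480.0, 8805, 9440.2 and 11164 in EmcOE and 14083, 13425, 11910.0 and 18907 in Control replicates 1 to 4, with a log2 fold change of -0.34 (-0.76 to 0.075; adjusted p = 0.288). Without EmcOE replicate 1, both were called downregulated, *Nplp3* with -0.53 (adjusted p = 0.00182 from edgeR) and *Nplp2* with -0.56 (adjusted p = 0.0373). Without Control replicate 4, the highest Control sample of *Nplp2*, that gene had -0.20 (adjusted p = 0.574 from edgeR). With all samples, *Nplp3* was also called by DESeq2 with the replicate block (-0.37, adjusted p = 0.00320), but not by DESeq2 or edgeR otherwise. Among the EmcOE samples, replicate 1 also had the highest sums of gut markers (8502, against 1998 to 4271 in the others) and of muscle markers (29965, against 17975 to 26808). Among the Control samples, the gut sum was lowest in replicate 1 (1827) and highest in replicate 4 (8805). The muscle sum was lowest in Control replicate 3 (22961) and highest in Control replicate 1 (36885). *Nplp3* was highest in Control replicate 1 and *Nplp2* in Control replicate 4. The fat body sum was lowest in Control replicate 3 (53360) and highest in Control replicate 4 (202910), as was *Nplp2*. Among the EmcOE samples it was lowest in replicate 2 (90043), again as *Nplp2*. It was highest in EmcOE replicate 4 (160530), while *Nplp2* was highest in EmcOE replicate 1. The part of gut, muscle and fat body in the *Nplp2* and *Nplp3* counts was not tested. Reducing EmcOE replicate 1 to the depth of the other samples left both genes uncalled. *Nplp1* had 5339.9, 5675, 5474 and 5759 in EmcOE and 5672, 5237, 5589.9 and 5982 in Control replicates 1 to 4, and a log2 fold change of -0.01 (-0.12 to 0.10). *spab* had 3656, 3793, 3443 and 4045 in EmcOE and 4176, 4073, 4027 and 3854 in Control replicates 1 to 4, and a log2 fold change of -0.11 (-0.23 to 0.015). The samples of both genes overlapped between the groups, and neither was called. *Orcokinin* had -0.05 (-0.20 to 0.09). *Gpa2* and *Gpb5*, the subunit genes of the glycoprotein hormone thyrostimulin, had log2 fold changes of 0.12 (-0.40 to 0.64) and 0.068 (-0.18 to 0.31). *Gpa2* had -0.13 without EmcOE replicate 1.

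None of the 7 genes of clock and sleep neurons was called. *Pdf*, the transmitter gene of the ventral lateral clock neurons, had normalized counts of 2416, 2143, 1999 and 1906 in EmcOE and 2008, 2142, 2248 and 2308 in Control replicates 1 to 4. The groups overlapped, and the log2 fold change was -0.036 (95% interval -0.19 to 0.12). *Dh31*, a wake-promoting peptide gene of dorsal clock neurons, had 3389, 3160.5, 3132 and 3302 in EmcOE and 2971, 2924, 3194 and 3091 in Control replicates 1 to 4. These overlapped as well, and the log2 fold change was 0.10 (0.0010 to 0.19; adjusted p = 0.191 from edgeR). For *ITP*, the gene of the antidiuretic ion transport peptide, it was -0.092 (-0.20 to 0.01), with 3343 to 3732 normalized counts in EmcOE and 3585 to 3890.4 in Control. *CCHa1* (0.14; 159 to 196 in EmcOE and 149.8 to 161 in Control), *CNMa* (-0.0019), *Trissin* (-0.024) and the memory gene *amn* (0.16) were not called. *amn*, with 36.1 normalized counts as its Control mean, and *CNMa*, with 49.9, had intervals reaching 0.83 and 0.49.

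None of the 4 genes of diuresis and metabolic stress was called either. The genes overlapped between the groups, with means of 2976 ± 135 and 3155 ± 186 normalized counts for *Dh44* in EmcOE and Control brains (SD, n = 4), 755 ± 49.1 and 758 ± 67.5 for *Crz*, and 1026 ± 196 and 1169.5 ± 113 for *Capa*. The diuretic hormone gene *Dh44* had a log2 fold change of -0.080 (95% interval -0.20 to 0.04), the corazonin gene *Crz* -0.00013 (-0.17 to 0.17) and the capability gene *Capa* -0.18 (-0.44 to 0.08). *Capa* had -0.30 without EmcOE replicate 1 and -0.10 without EmcOE replicate 3, and was called in neither case. *Akh* encodes adipokinetic hormone, which mobilizes fuel stores and is made in the corpora cardiaca, a gland attached to the brain. It was the most variable of the well-counted precursor genes, with 842, 552, 259 and 355 normalized counts in EmcOE and 547, 733, 399 and 660.2 in Control replicates 1 to 4. The groups overlapped widely, and the log2 fold change was -0.21 (-0.90 to 0.48). It was -0.59 without EmcOE replicate 1 and 0.00070 without EmcOE replicate 3, and other samples left out gave values between these, so the data give no direction for *Akh*. Of the gland markers tested, *jhamt*, of the adjoining corpora allata, had 201, 159, 108 and 183 in EmcOE and 121, 142, 106 and 175 in Control replicates 1 to 4, with overlap. *sad*, a gene of ecdysteroid synthesis, had 184, 236, 185 and 135 in EmcOE and 64, 78, 48.8 and 30.0 in Control replicates 1 to 4. It rose by 1.74 on the log2 scale (adjusted p = 0.00239 from edgeR), and its lowest samples were others than those of *jhamt* and *Akh*. How much gland was dissected with each brain was not measured.

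Summed over the group, the precursor genes took 3387 ± 416 CPM (counts scaled by the TMM library size) in EmcOE and 3726 ± 113 in Control brains (SD, n = 4). Without *Nplp2* and *Nplp3* the sums were 2255 ± 106 and 2295 ± 5.59. The lowest and highest EmcOE samples of this second sum were replicate 3 (2121) and replicate 1 (2377), which lay on either side of all Control samples (2288 to 2300).

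Of the genes that process, release and degrade peptides, 1 in each list was called. That is 12.5% of the processing, 11.1% of the vesicle and 14.3% of the peptidase genes tested, beside 8.68% of all features. In lists this short, 1 call is near that share. Among 8 processing genes tested, *Phm* was downregulated. It encodes the monooxygenase that catalyzes the first step of C-terminal amidation. Its normalized count was 4706, 4707, 4504 and 4702 in EmcOE and 5335, 5346.5, 5736 and 5333 in Control replicates 1 to 4, without overlap. It fell by 0.22 on the log2 scale (standard error 0.042; adjusted p = 0.00889, edgeR). With total counts it was -0.15 (adjusted p = 0.144), and with a correction for gene length it was -0.19, short of the threshold. The prohormone convertase gene *amon* (0.02), its helper *7B2* (0.03) and the lyase genes *Pal1* (-0.02) and *Pal2* (0.10), which act after *Phm*, were not called. *Pal2* was nonetheless higher in EmcOE brains without overlap (9595 to 10345 in EmcOE and 8826 to 9539 in Control). Of 9 dense core vesicle genes tested, *Syt7*, a calcium sensor gene of vesicle exocytosis, was upregulated. Its normalized count was 11938 to 13534 in EmcOE and 9947 to 11353 in Control brains, and it rose by 0.28 on the log2 scale (adjusted p = 0.0121 from edgeR). Without EmcOE replicate 2 or Control replicate 2 it was not called (adjusted p = 0.0530 and 0.0575 from edgeR). *dimm*, a bHLH factor gene of peptidergic cells, had 62.2 ± 6.12 in EmcOE and 72.2 ± 12.9 in Control brains (SD, n = 4), and was not called. Of 7 peptidase genes tested, the neprilysin gene *Nep4* was downregulated with a log2 fold change of -0.22 (adjusted p = 0.0460 from edgeR). It lost its call without any of 7 of the 8 samples.

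Of 36 receptor genes of these peptides tested, 3 were upregulated and 1 was downregulated (11.1%, beside 8.68% of all features). The genes of the allatostatin C receptors, both on 3L, moved in opposite directions. *AstC-R1* had 386, 403, 385 and 398 normalized counts in EmcOE and 688, 720, 739 and 731 in Control replicates 1 to 4. It fell by 0.87 on the log2 scale (standard error 0.058; adjusted p = 8.97e-06, edgeR). *AstC-R2* had 975, 917, 940.02 and 943 in EmcOE and 777, 791, 781 and 793 in Control replicates 1 to 4, and rose by 0.27 (standard error 0.048; adjusted p = 0.00672, edgeR). Both calls held in all 19 other fits. Neither receptor's groups overlapped, and their ligand gene *AstC* had -0.19, as given above. *SIFaR*, the SIFamide receptor gene, rose by 0.46 on the log2 scale (adjusted p = 0.00604 from edgeR), while its ligand gene *SIFa* had -0.07 and overlapping groups. The myosuppressin receptor gene *MsR1* rose by 0.27 (adjusted p = 0.0213), beside 0.12 for *Ms*. *MsR1* was not called without EmcOE replicate 2 or 3 (adjusted p = 0.0604 and 0.0553 from edgeR). The other myosuppressin receptor gene, *MsR2*, had -0.01 and was not called.

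**Figure D4:**
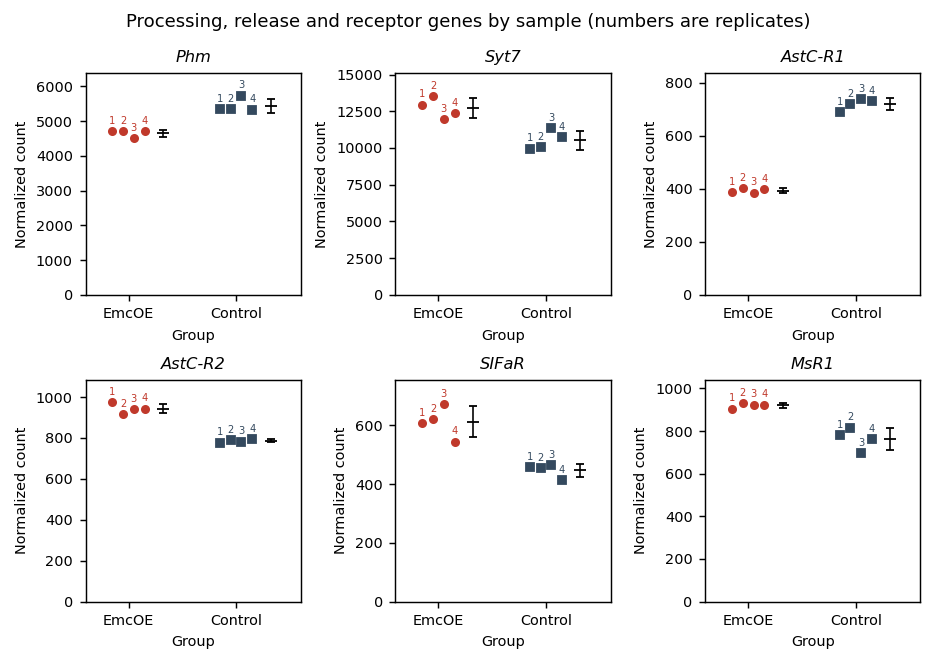
Normalized counts of the amidation gene *Phm*, the vesicle gene *Syt7* and the receptor genes *AstC-R1*, *AstC-R2*, *SIFaR* and *MsR1* in each sample, with replicate numbers beside the points and the mean and SD of 4 samples at the right of each group. The groups do not overlap in any of the 6 panels, and *AstC-R1* has the widest gap.

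Of 9 further peptide precursor genes, 5 were tested and 2 were called (40%, in a short list, beside 8.68% of all features). The insulin-like peptide gene *Ilp3* was upregulated, with 3082 ± 288 normalized counts in EmcOE and 2341 ± 370 in Control brains (SD, n = 4; log2 fold change 0.40, adjusted p = 0.0443 from edgeR). *Ilp6*, made in glia and fat body, was downregulated, with 604 ± 41.4 and 760 ± 82.5 (log2 fold change -0.33, adjusted p = 0.0430 from edgeR). Both calls were marginal and were lost without 5 of 8 samples for *Ilp3* and 6 of 8 for *Ilp6*. *Ilp2*, made with *Ilp3* in the median neurosecretory cells, had a log2 fold change of -0.11 and was not called. *Ilp5*, from the same cells, had 2148, 1747, 1418 and 1756 normalized counts in EmcOE and 1463, 1604, 1207 and 1446 in Control replicates 1 to 4, which overlapped. Its log2 fold change was 0.31 (95% interval 0.05 to 0.56; adjusted p = 0.120 from edgeR), and it was called with the replicate block (0.30, adjusted p = 0.0404 from edgeR).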

How the data were processed

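The deposited counts are raw numbers of read pairs per feature. The authors trimmed the reads with BBDuk, mapped them with STAR (2.7.4a per the labels) to BDGP6.32 with a second pass for splice junctions and counted pairs with featureCounts (2.0.1) without strand, keeping pairs with both ends mapped. The exon length of each feature comes from the same deposited table. All 41 genes had the same positions in the annotation given here (Ensembl BDGP6.54), which gave exon and residue numbers. Normalized counts are counts divided by the TMM effective library size times the mean of these sizes. Tests used R 4.3.3, edgeR 4.0.16 and DESeq2 1.42.0, fitted to all features whose mean in either group reached 20 normalized counts, without a replicate term. Alternatives were other size factors, count minimums and thresholds, DESeq2, a replicate block, a length correction, thinning of the deepest sample and leaving out each sample. Condition and replicate number came from the labels. Intervals are 95%, from the standard error and the model's degrees of freedom. On simulated counts (9731 features, 200 changed) edgeR recovered 71% of changes of 0.5 and 95% of changes of 1 on the log2 scale, with 19 false calls. Changes were simulated only in features with a mean count well above the minimum for testing. These shares therefore do not cover the precursor genes of lowest counts. The false calls were a larger share of the calls in this simulation than the adjusted p threshold of 0.05. Precursor genes were described per sample if called in edgeR, with the block or in DESeq2, if among the 10 highest levels per kb, or if the groups did not overlap; *Akh*, *jhamt*, *sad* and *Ilp5* were added after their values were seen. Other lists gave their called genes and the receptors of called precursors; other genes named from them are examples chosen later. The members, gene lists and roles were chosen with earlier results of these data known. No genome or protein sequence was used here. Whether samples come from separate crosses is not stated in the labels. The variation between samples that the tests used may therefore not be variation between separate crosses.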

Additional observations from a re-analysis of the deposited data

Results flagged for a closer look

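In groups of 4, the gap of the highest or lowest sample to its neighbor was large against the range of the group (Dixon's test) in 5 of 92 groups examined, about the 1 in 20 that chance gives. *sNPF* was highest in EmcOE replicate 2 (5724 normalized counts, next 5545) and in Control replicate 4 (6055, next 5835). *Crz* was highest in Control replicate 1 (858, next 740.04). *Phm* was lowest in EmcOE replicate 3 (4504, next 4702) and highest in Control replicate 3 (5736, next 5346.5).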

How the results depend on the processing

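Other normalizations, count minimums, models and thresholds, and leaving out each sample, left *Eh* the 1 precursor gene upregulated in all 21 alternatives. The number downregulated was 0 with total counts (no *Hug*), 2 with no fold change minimum (*Hug* and *AstC*), 2 with DESeq2 and the replicate block, chosen after seeing the data (*Hug* and *Nplp3*), and 1 to 3 when a sample was left out. In these last fits *Nplp2* and *Nplp3* joined without EmcOE replicate 1, and *AstC* without EmcOE replicate 4 (-0.22) or Control replicate 3 (-0.22). The called genes of the other lists numbered 9, and 4 to 8 when a sample was left out, with 4 without EmcOE replicate 2. The median of the precursor genes stayed between -0.059 and 0.066. Over all features, leaving out a sample gave 204 to 465 upregulated and 323 to 513 downregulated. Same-numbered samples did not deviate together (correlations -0.488, 0.148, 0.0316 and -0.212). Their column labels also share a letter, and these correlations cannot show whether they were collected or prepared together. With the replicate block in edgeR, *Eh* (1.17, adjusted p = 0.00191) and *Hug* (-0.32, adjusted p = 0.00825) were called, and *Nep4* (adjusted p = 0.0580) and *Ilp6* (adjusted p = 0.0508) were not. Over all features it gave 326 and 487 calls. Intervals reached past 0.5 on the log2 scale for *Burs*, *Pburs*, *Ptth*, *amn* and *Gpa2*, which had low counts. They did so too for *Nplp2*, *Nplp3* and *Akh*, which had more counts. The part of depth in these widths was not tested.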
